A study of Mus musculus with 36 samples.

Results

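The genes described here mark lipid-associated macrophages, the TREM2-positive macrophages that gather around dying adipocytes in obese fat. The 10 members, chosen by gene name from the gene-level expression table, were Trem2, Gpnmb, Cd9, Spp1, Itgax, Mmp12, Atp6v0d2, Tm4sf19, Lgals3 and Adam8. Each of the 10 matched a single row among 56748 genes. They were named with earlier results of these same libraries known, so their diet and genotype differences in visceral fat are given as a description, without a p-value.

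RNA was sequenced from visceral white adipose tissue (visWAT) and liver of 18 male mice on a C57BL/6J background, with 1 library per tissue and mouse. Mlkl Adi-KO mice carried floxed Mlkl and the Adipo-Cre transgene, so that the gene was deleted in mature adipocytes, and floxed littermates without Cre served as WT controls. Mlkl encodes the pseudokinase that carries out necroptosis, a lytic form of cell death. The mice received a normal chow diet (NCD; 4 WT and 4 KO) or a high-fat diet (HFD; 5 WT and 5 KO) for 16 weeks, starting at 16 weeks of age. Libraries are named below by genotype, diet and mouse number, and both tissues of a mouse bear the same number.

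Macrophages in expanding fat take up lipid released by adipocytes and digest it in lysosomes. TREM2 is a surface receptor for lipids and lipoproteins that signals through the adaptor TYROBP, and macrophages lacking it form fewer lipid-laden cells around dead adipocytes. In the liver, resident macrophages are Kupffer cells, and a related TREM2-positive population appears in steatotic liver. These genes are also used elsewhere: osteopontin (Spp1) is made by bile duct epithelium, and the tetraspanin Cd9 is found on many cell types. In whole-tissue RNA, fewer cells of a type and less RNA per cell cannot be told apart.

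Between 20875463 and 30322171 reads were assigned to genes per library. Values are FPKM, reads scaled by gene length and by a size set for each library. That size was 0.737 to 1.40 times the reads assigned to genes. Differences were computed on log2(FPKM + 1), which understates the change of genes near 0. A gene was called at an adjusted p under 0.05 in limma, adjusted over all genes averaging 0.5 FPKM or more in the libraries compared. All 10 members passed this floor over the 18 visWAT libraries, and 5 did over the 18 liver libraries. Mlkl, the deleted gene, lay between 4.58 and 6.28 FPKM in HFD WT fat and between 2.32 and 2.72 in HFD KO fat. In NCD fat it lay between 1.96 and 2.49 FPKM in KO mice, while the library labelled WT NCD mouse 182, with 2.29, fell inside that range and its 3 group mates had 3.91 to 5.11. WT NCD mouse 183 stood apart in fat in another way: seminal vesicle transcripts made up 16.6% of its reads, against at most 0.0233% in any other visWAT library. Values without these libraries are given beside the results they moved most.

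The sequences just before the start of transcription were read for the members because they moved together in fat. The 250 bases before the start of the canonical transcript (GRCm39 genome, GENCODE annotation) were searched on both strands. The AP-1-like pattern TGANTCA takes in the AP-1 site, TGACTCA or TGAGTCA, and also TGAATCA and TGATTCA. It was present in 4 of 10 members, Trem2, Itgax, Mmp12 and Atp6v0d2, against 6.17% of 21770 protein-coding promoters of the same length. Itgax and Atp6v0d2 held TGACTCA and Mmp12 TGAGTCA, while Trem2 held TGAATCA, which is not the AP-1 site itself. The share of promoters with the AP-1 site alone was not counted. The M-box core CATGTG was present in 2 of 10, Spp1 and Mmp12, against 10.5% of all promoters. The E-box CACGTG, bound by the MiT/TFE factors, and the ETS core AGGAAGT were present in 0 of 10, against 6.26% and 7.12%. None of these motifs overlapped another. The 4 windows with the pattern TGANTCA follow, 5′ to 3′ on the strand of the gene. The pattern and, in Mmp12, the M-box core are in capitals, and none of the 4 windows overlapped an annotated exon. The Trem2 window is chr17:48653179-48653428 on the plus strand, Itgax chr7:127728418-127728667 on the plus strand, Mmp12 chr9:7347124-7347373 on the plus strand and Atp6v0d2 chr4:19922615-19922864 on the minus strand.
Trem2: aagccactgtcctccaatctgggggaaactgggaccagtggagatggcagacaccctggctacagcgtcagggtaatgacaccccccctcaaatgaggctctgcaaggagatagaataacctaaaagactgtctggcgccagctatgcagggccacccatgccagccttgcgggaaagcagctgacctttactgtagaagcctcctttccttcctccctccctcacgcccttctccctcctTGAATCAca
Itgax: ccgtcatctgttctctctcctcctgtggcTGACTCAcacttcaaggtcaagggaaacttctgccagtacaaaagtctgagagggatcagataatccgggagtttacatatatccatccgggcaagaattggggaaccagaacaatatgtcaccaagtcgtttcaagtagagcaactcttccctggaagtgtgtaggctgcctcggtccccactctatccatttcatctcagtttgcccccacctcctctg
Mmp12: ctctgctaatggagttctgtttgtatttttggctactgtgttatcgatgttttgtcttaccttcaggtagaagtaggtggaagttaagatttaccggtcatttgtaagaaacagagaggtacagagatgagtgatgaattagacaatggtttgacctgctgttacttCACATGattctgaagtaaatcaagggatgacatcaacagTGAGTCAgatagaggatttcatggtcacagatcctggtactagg
Atp6v0d2: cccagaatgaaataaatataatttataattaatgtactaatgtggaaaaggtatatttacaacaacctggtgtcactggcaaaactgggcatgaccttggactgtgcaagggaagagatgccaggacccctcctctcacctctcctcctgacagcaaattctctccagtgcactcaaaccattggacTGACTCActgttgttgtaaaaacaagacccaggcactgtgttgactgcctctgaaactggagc
The pattern TGANTCA began 9 bases before the start in Trem2, 221 bases in Itgax, 44 bases in Mmp12 and 63 bases in Atp6v0d2. These matches are a description of letters, and binding was not measured.

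HFD-fed WT fat held far more RNA of the lipid-associated macrophage genes than NCD-fed WT fat. All 10 members were called higher in limma, where 21.9% of 14161 genes were called higher. For 9 of 10 every HFD library lay above every NCD library, where 19.6% of genes did so. Since the members were chosen with this contrast known, nothing is read from these counts. The median log2 difference of the members was 5.02, against -0.01 over all genes tested.

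Trem2, the lipid receptor that gives the population its name, was at 0.716, 0.598, 0.784 and 0.805 FPKM in the 4 WT NCD libraries. In the 5 WT HFD libraries it was at 37.1, 71.6, 68.8, 48.9 and 52.9 FPKM. The groups were far apart, with a log2 difference of 5.0 ± 0.18 (SE). Gpnmb, a transmembrane glycoprotein of lysosome-rich macrophages, was at 3.04, 1.22, 1.21 and 2.61 FPKM in WT NCD fat. It reached 180, 338, 321, 233 and 267 FPKM in WT HFD fat. Its log2 difference of 6.49 ± 0.24 was the largest among the members in this contrast.

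Spp1, the secreted matrix protein osteopontin, was nearly silent in WT NCD fat, at 0.0853, 0.136, 0.224 and 0.139 FPKM from 5 to 10 reads per library. In WT HFD fat it was at 29.0, 50.8, 51.7, 29.1 and 41.3 FPKM, a log2 difference of 5.13 ± 0.18. Mmp12, the macrophage elastase, ranged from 0.0222 to 0.656 FPKM on NCD and from 49.8 to 87.8 FPKM on HFD, a log2 difference of 5.82 ± 0.18. Adam8, a membrane-bound metalloproteinase of myeloid cells, went from at most 1.19 FPKM to at least 42.1 FPKM. Both proteases and the matrix protein therefore lay in separate ranges on the 2 diets.

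Atp6v0d2, a macrophage and osteoclast isoform of a subunit of the proton pump that acidifies lysosomes, was at 0.0721 to 0.321 FPKM on NCD and at 40.0 to 68.7 FPKM on HFD in WT fat. Its log2 difference was 5.58 ± 0.15. Tm4sf19, a tetraspan membrane protein, was listed at 0 in 2 of the 4 WT NCD libraries and had 1 read in each of the other 2. In WT HFD fat it was at 10.5, 10.4, 12.7, 11.2 and 11.7 FPKM, the narrowest relative spread among the members there. No fold is given for it, since the NCD group held 2 reads in all.

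Itgax, the integrin subunit CD11c, went from 0.354 to 1.2 FPKM on NCD to 35.4 to 48.9 FPKM on HFD in WT fat. Lgals3, the galactose-binding lectin galectin-3, was the member with the highest mean FPKM in each visWAT group, from 27.8 to 54.0 FPKM in WT NCD and from 432 to 789 FPKM in WT HFD. Its log2 difference, 3.95 ± 0.26, was below that of 7 other members.

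Cd9 was the exception in WT fat. It was at 17.1, 13.7, 12.8 and 58.9 FPKM in WT NCD fat and at 58.1, 86.2, 75.0, 61.0 and 69.3 FPKM in WT HFD fat. The fourth NCD value belongs to mouse 183, the library with seminal vesicle transcripts, and overlaps the HFD range. The log2 difference was 1.70 ± 0.39 with all mice and 2.10 ± 0.16 without mice 182 and 183, when the groups no longer overlapped. The part of seminal vesicle tissue in that value was not tested. Without those 2 mice the median over the members was 5.02, and all 10 were called. Over the alternative settings of this contrast 4032 to 7295 genes were called in either direction, and nothing is read from the members' count.

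**Figure D1:**
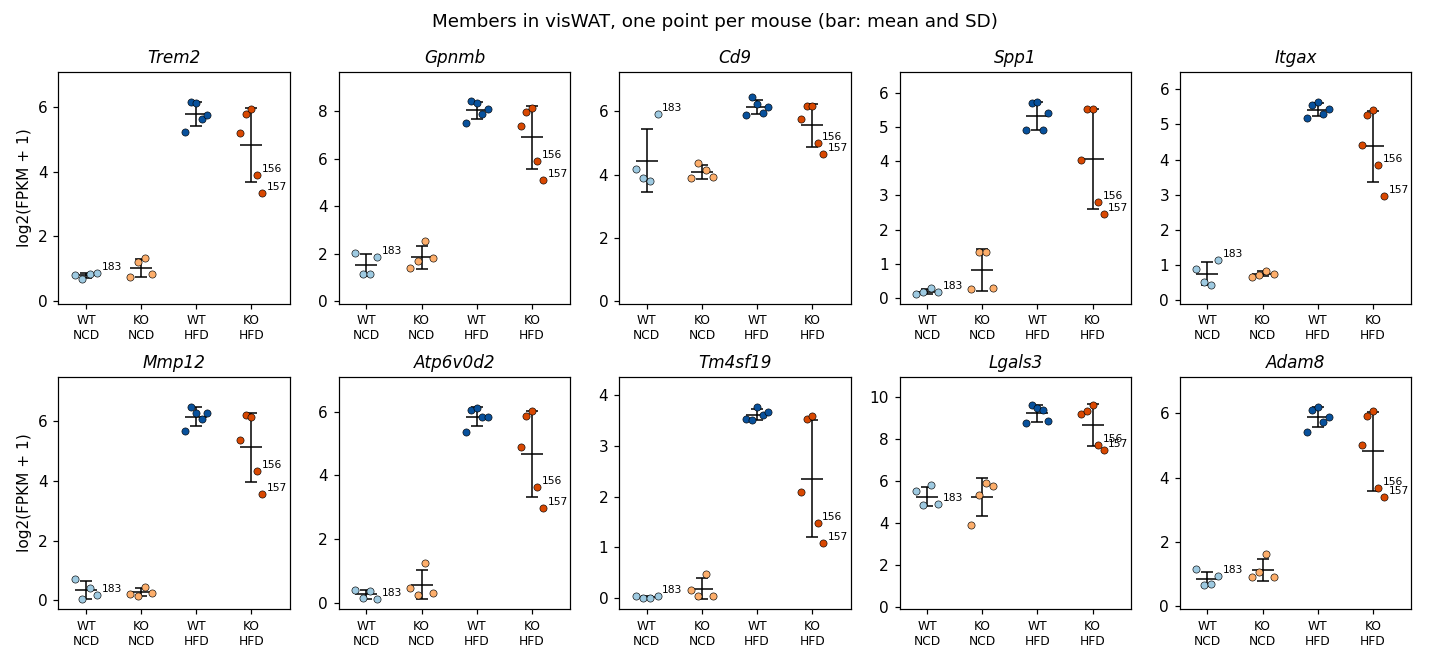
Levels of the 10 members in visWAT as log2(FPKM + 1), 1 point per mouse, with the mean and SD of each genotype and diet group (4 mice per NCD group, 5 per HFD group). HFD libraries lie above NCD libraries for every member except Cd9, where WT NCD mouse 183 reaches the HFD range, and KO HFD mice 156 and 157 lie below the other HFD libraries.

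In KO fat the same diet contrast gave 10 of 10 members called higher, where 23.3% of 14026 genes were called higher, and 10 of 10 without overlap between the diets, where 20.1% of genes did so. The median log2 difference was 3.66, against 0.01 over all genes tested. Trem2 was at 0.654, 1.28, 1.49 and 0.789 FPKM in KO NCD fat and at 35.9, 54.2, 60.3, 14 and 9.20 FPKM in KO HFD fat, a log2 difference of 3.82 ± 0.52. Gpnmb ranged from 1.61 to 4.75 FPKM on NCD and was at 164, 251, 281, 58.1 and 33.1 FPKM on HFD, a log2 difference of 5.03 ± 0.62. The KO HFD libraries spread more widely than the WT HFD libraries, and the standard errors were larger than in WT fat for 9 of 10 members. Without KO HFD mice 156 and 157, a choice made after seeing the data, the median difference was 4.42 and 10 of 10 were called. Over the alternative settings of this contrast 4890 to 6808 genes were called in either direction, and nothing is read from the members' counts.

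In HFD fat, KO mice had lower mean levels of all 10 members than WT mice, and 0 of 10 were called, where 0.0215% of 13963 genes were called. The median log2 difference, KO minus WT, was -1.05, against -0.00 over all genes tested. No member separated the genotypes, where 1.59% of genes were lower in KO without overlap. Trem2 differed by -0.95 ± 0.48, Gpnmb by -1.14 ± 0.55, Spp1 by -1.25 ± 0.60 and Tm4sf19 by -1.26 ± 0.46. These differences were -0.55 ± 0.43 for Lgals3 and -0.58 ± 0.29 for Cd9. A count of 3 genes was called in all, 3003 genes had an unadjusted p under 0.05, and edgeR and DESeq2 on the recovered reads called 3 and 146 genes and none of the members.

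The lower KO mean came from 3 of the 5 mice. Mouse 157 had the lowest level of the 10 HFD libraries for 10 of 10 members, and mouse 156 the second lowest for 10 of 10. Mouse 151 was next for 9 of 10. Mice 152 and 153 ranked between 5 and 9 from the bottom, inside the WT range. For Tm4sf19 the split was plain: mice 151, 156 and 157 had 3.27, 1.81 and 1.11 FPKM, mice 152 and 153 had 10.5 and 11, and WT mice had 10.4 to 12.7. Spp1 showed the same order, with 15.5, 6.03 and 4.46 FPKM in mice 151, 156 and 157, 45.4 and 45.1 in mice 152 and 153, and 29.0 to 51.7 in WT mice. Lgals3 did not place mouse 151 apart, at 569 FPKM within the WT range, while mice 156 and 157 had 205 and 178.

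Without mice 156 and 157 the median KO minus WT difference in HFD fat was -0.23, with 9 of 10 members lower in KO. Trem2 then differed by -0.15 ± 0.24 and Tm4sf19 by -0.55 ± 0.30, and Lgals3 was higher in KO by 0.17 ± 0.22. Leaving out these libraries was chosen after seeing the data. They were the lowest for the members, so a smaller difference follows from that choice, and nothing is read from it.

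Adipocyte and macrophage markers moved with this order. Adipoq, which encodes the adipocyte hormone adiponectin, was at 1828, 1994 and 1947 FPKM in mice 151, 156 and 157, and between 743 and 1018 in the other 7 HFD libraries. The summed level of the 8 macrophage markers was 1223, 646 and 604 FPKM in mice 151, 156 and 157, and between 1535 and 2148 in the other 7. The summed level of the 5 adipocyte markers was 5165, 5479 and 6170 FPKM in those 3 mice and 3049 to 3706 in the others. Liver markers were also high in the fat of mouse 156: Clec4f had 80 reads there, 0 in the other 4 KO HFD fat libraries and at most 17 in WT HFD fat. The 4 hepatocyte markers summed to 1147 FPKM there and to 335 in mouse 157, against 22.8 to 148 in the other 8 HFD fat libraries. In NCD fat this sum was 856 to 1975 FPKM, with Cyp2e1 alone averaging 1158 in WT NCD fat. The part of these cells in the members' values was not tested.

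**Figure D2:**
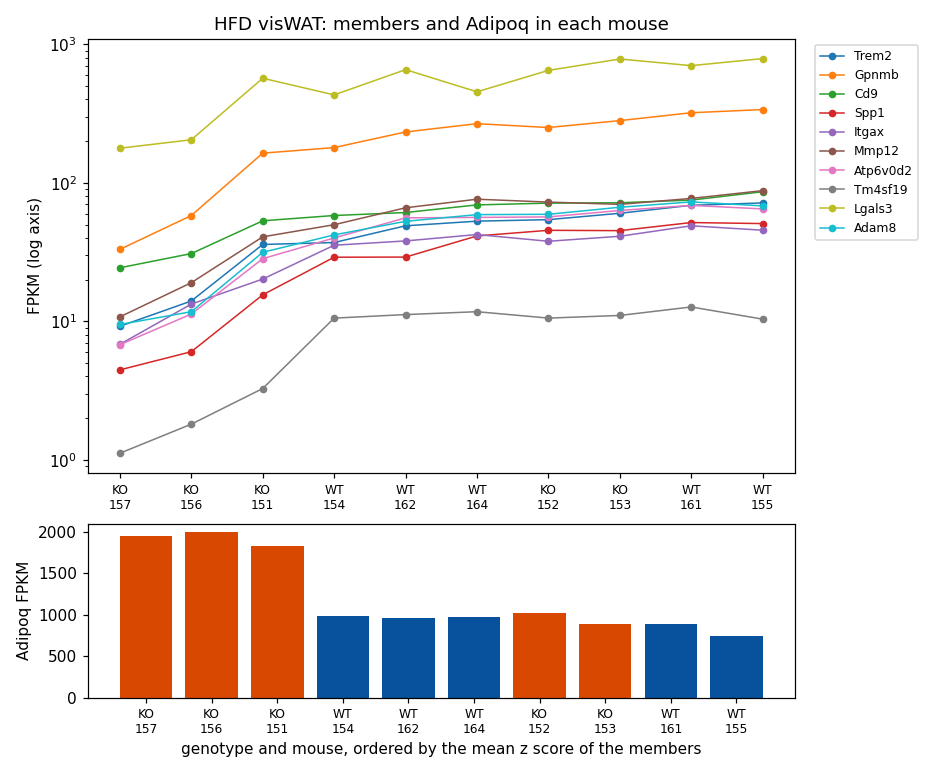
Upper panel, FPKM (log axis) of the 10 members in the 10 HFD visWAT libraries, ordered by the mean z score of the members; lower panel, Adipoq FPKM in the same libraries (orange KO, blue WT). KO mice 157, 156 and 151 come lowest for the members and have 1828 to 1994 FPKM of Adipoq, and KO mice 152 and 153 lie among the WT mice.

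Over the 10 HFD visWAT libraries the 45 pairs of members had Pearson r between 0.841 (Tm4sf19 and Lgals3) and 0.998 (Trem2 and Gpnmb), with a median of 0.978. These libraries share tissue, scaling and the spread set by 3 KO mice, so r is given as a description. Outside the list, of 11923 genes averaging 1 FPKM or more, the 5 most like the members' mean z score were Hk3, Rnf128, Anpep, Myo1f and Slc6a8. Hk3, a myeloid hexokinase, had r = 0.999, rho = 0.988 and r = 0.996 without the 2 libraries farthest from the median. Myo1f, a myosin of leukocytes, had r = 0.998, rho = 0.988 and r = 0.985 without them. Rnf128 had r = 0.998, Anpep, which encodes aminopeptidase N, had r = 0.998, and the creatine transporter gene Slc6a8 had r = 0.997. As many as 500 genes exceeded r = 0.95, out of the 11923 compared.

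In NCD fat the members were low in both genotypes. The 7 members tested there were not called, where 0% of 14063 genes were called by limma, 528 had an unadjusted p under 0.05, and edgeR and DESeq2 called 0 and 8. Spp1 was uneven among KO NCD mice, at 0.204, 1.54, 1.53 and 0.230 FPKM, against 0.0853 to 0.224 in WT NCD mice. Without mouse 182, which had the highest of these WT values, every KO NCD library lay above every WT NCD library for Spp1, where 3.34% of genes did so. The difference of Cd9, KO minus WT, was -0.36 ± 0.44 with all mice and 0.05 ± 0.16 without mice 182 and 183. KO NCD mouse 197 had the highest value of its group for 8 of 10 members, all but Cd9 and Spp1. The summed macrophage markers were also highest in mouse 197 among NCD libraries, at 412 FPKM against 180 to 316 in the other 7.

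The diet difference of the members was smaller in KO than in WT fat for 10 of 10, with a median difference of differences of -1.26. None was called, where 0% of 14136 genes were called by limma, 1867 had an unadjusted p under 0.05, and edgeR and DESeq2 called 0 and 19. Without KO mice 156 and 157 the median was -0.43. The largest was that of Spp1, -1.87 ± 0.75, and the smallest that of Cd9, -0.22 ± 0.54, which was -0.63 ± 0.44 without WT NCD mice 182 and 183.

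The macrophage markers rose on HFD as well. Of 8 pan-macrophage genes, 7 were called higher in WT fat, with a median log2 difference of 2.57, and 7 were called higher and 1 lower in KO fat. Over all genes tested, 21.9% were called higher in WT fat and 23.3% in KO fat. The gene lists were chosen with earlier results known, so the counts here and in the lists below are a description. Adgre1, the F4/80 antigen, went from 4.21 to 6.10 FPKM in WT NCD to 67.7 to 105 FPKM in WT HFD. Cd68, an endosomal glycoprotein of phagocytes, went from 10.1 to 15.8 FPKM to 244 to 427. Csf1r, the receptor for the macrophage growth factor CSF1, rose less, from 10.6 to 14.5 FPKM to 57.6 to 75.6. Lyz2, the macrophage lysozyme, averaged 175 FPKM in WT NCD and 1211 FPKM in WT HFD fat, and Mpeg1, a pore-forming protein of phagocytes, averaged 5.71 and 89.1. Mertk, an efferocytosis receptor, was the gene called lower in KO fat, at -0.62 (log2).

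Each member was also set against the geometric mean of the 8 markers in the same library, a log2 ratio that does not depend on how the library was scaled. In WT fat the ratio was higher in every HFD library than in every NCD library for 8 of the 9 members without a value of 0, where 0.883% of genes were, and the median HFD minus NCD difference was 3.30. Trem2 had a mean log2 ratio of -3.35 in WT NCD and -0.05 in WT HFD fat, so that in HFD fat it stood level with the markers. The difference was 5.85 for Mmp12, 5.48 for Atp6v0d2, 5.22 for Spp1 and 4.21 for Gpnmb. Mmp12, Atp6v0d2 and Spp1 had as few as 5, 6 and 5 reads in a WT NCD library, so the size of their differences is uncertain. It was 1.06 for Lgals3. Cd9 went the other way, as 93.3% of genes did, with a mean log2 ratio of 1.48 in NCD and 0.30 in HFD fat. The NCD mean was 0.93 without mouse 183, and the difference then -0.63 in place of -1.18.

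In KO fat the median HFD minus NCD difference of this ratio was 3.0 over 10 members, and 9 of 10 were higher in every HFD than in every NCD library, where 0.877% of genes were. The members were chosen with the diet contrasts known, and nothing is read from these counts. Between genotypes on HFD the ratio differed by a median of -0.35, KO minus WT, and by -0.03 without KO mice 156 and 157. Itgax was the member whose ratio was lower in every KO HFD than in every WT HFD library, by -0.35, from a mean of -0.43 in WT to -0.77 in KO, where 0.107% of genes were lower without overlap. Its difference was -0.20 without mice 156 and 157. Against Adgre1 alone it was -0.08 and against Csf1r alone -0.38, and the genotypes overlapped in both. The ratio of Trem2 differed by -0.24, and by 0.05 without mice 156 and 157, and that of Lgals3 by 0.20 and 0.37, with overlapping groups. Against Adgre1 alone the median WT diet difference was 2.20, and against Csf1r alone it was 3.79. The ratio of 8 of 9 members was higher on HFD against all 8 markers and against Csf1r, and that of 7 of 9 against Adgre1.

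**Figure D3:**
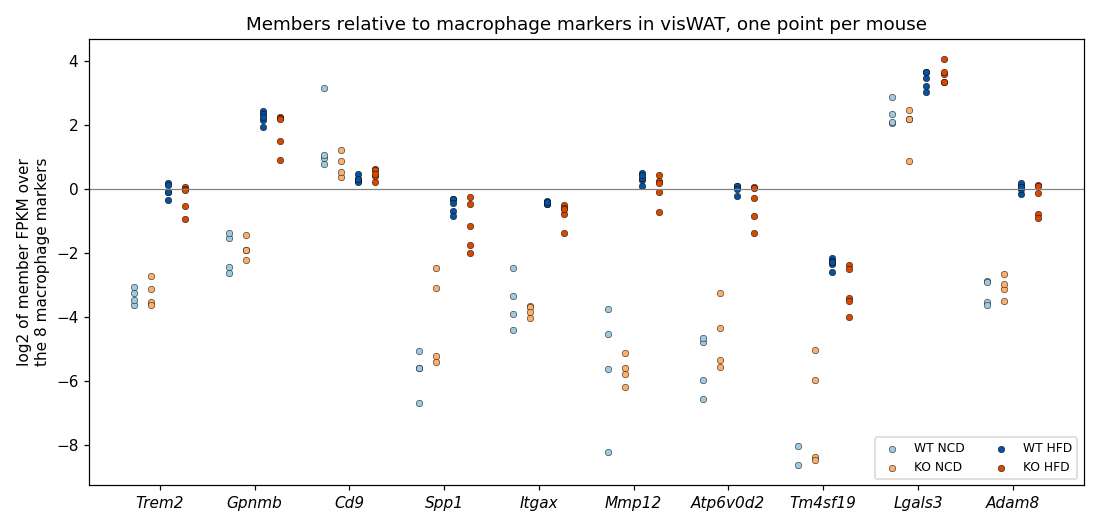
Log2 ratio of each member's FPKM to the geometric mean FPKM of 8 macrophage markers in the same visWAT library, 1 point per mouse; libraries at 0 are left out. For Trem2 the ratio lies near -3.35 on NCD and near -0.05 on HFD in WT mice, and for Cd9 the WT NCD libraries lie above the WT HFD libraries.

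The partners of the members in the pathway were read from gene lists set together with the members. Of 7 genes of TREM2 signalling, 7 were called higher on HFD in WT and in KO fat, with median log2 differences of 1.77 and 1.08. Tyrobp, the signalling adaptor of TREM2, was at 16.1 to 22.2 FPKM in WT NCD and at 245 to 391 in WT HFD fat, a log2 difference of 3.96 ± 0.16. In KO HFD fat it was at 236, 322 and 362 FPKM in mice 151, 152 and 153 and at 102 and 90.0 in mice 156 and 157. The kinase Syk rose by 2.50 ± 0.12 in WT fat, the exchange factor Vav1 by 2.32 ± 0.13 and the inositol phosphatase Inpp5d by 1.62 ± 0.07. On HFD 0 of 7 were called between genotypes, with a median of -0.66.

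Lysosomal genes followed. Of 15, 14 were called higher in WT and 12 in KO fat, with medians of 1.73 and 1.30. Psap, the saposin precursor, averaged 447 FPKM in WT NCD and 1659 in WT HFD fat. The cathepsins Ctsd and Ctsb rose by 1.33 ± 0.34 and 1.77 ± 0.18, and the membrane protein Lamp1 by 0.87 ± 0.12. Of the 13 other proton pump subunits and accessory proteins, 11 were called higher in WT and 13 in KO fat, with medians of 0.92 and 0.64. The widely expressed Atp6v0d1, the paralogue of Atp6v0d2, averaged 51.2 FPKM in WT NCD and 73.3 in WT HFD fat, a rise of 0.52 ± 0.11, and Atp6v0b, Atp6ap1 and Atp6v0c rose by 0.68, 0.62 and 1.05. Of the MiT/TFE factors, which drive lysosomal genes, Tfe3, Tfeb and Mitf were tested and called higher in WT fat, by 0.60, 1.01 and 0.94, and Tfec stayed below the floor at a mean of 0.490 FPKM in WT HFD fat.

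Genes of lipid handling did not move together. Of 12, 6 were called higher and 1 lower in WT fat, and 7 higher and 2 lower in KO fat. Plin2, which coats lipid droplets, rose by 1.65 ± 0.50 in WT fat. Apoe differed by 0.14 ± 0.36, Cd36 by 0.39 ± 0.19 and Lpl by -0.23 ± 0.11, and none of these 3, all also expressed by adipocytes, was called in WT fat. All 7 integrin and osteopontin receptor genes were called higher in WT fat and 4 in KO fat. Itgb2, the partner chain of Itgax, averaged 5.57 FPKM in WT NCD and 79.0 in WT HFD fat, and Cd44, a receptor for osteopontin, 1.79 and 21.2. Itgb1 and Itgam rose by 0.48 and 2.01. Of 4 cell fusion genes tested, 3 were called higher in WT fat and 1 in KO fat, Dcstamp, which macrophages need to form multinucleated cells. Dcstamp averaged 0.0687 FPKM in WT NCD and 2.20 in WT HFD fat, and Itgav and Itgb3 rose by 0.65 and 0.44, while Tm4sf1 differed by -0.27 ± 0.14.

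Markers of other cells were read beside these, again as a description, where 21.9% of all genes were called higher in WT fat. Of 5 genes of resident fat macrophages, 2 were called higher in WT fat, Mrc1 by 1.51 and Folr2 by 2.47, and Lyve1 and Cd163 were not called. Of 4 monocyte genes 2 were called higher in WT fat, of 3 dendritic cell genes tested 2, and of 2 neutrophil genes tested 2, S100a8 by 2.22 and Csf3r by 0.95. The summed neutrophil markers were 1.11 to 3.16 FPKM in WT NCD and 9.90 to 14.6 in WT HFD fat, with Ly6g at 0 in every WT HFD library. None of 2 lymphocyte genes tested was called in WT fat. Among 4 progenitor genes 3 were called higher in WT fat, and among 5 adipocyte genes 1 was called higher and 3 lower. The part of each cell type in the members' values was not tested.

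The liver was compared with fat from the same mice. RNA was extracted with a different kit from each tissue, so kit and tissue cannot be told apart, and levels across tissues are compared as TPM, FPKM rescaled to the same total in every library. In WT HFD mice the median TPM of Trem2 was 226 in fat and 0.690 in liver, that of Gpnmb 1144 and 0.567, and that of Lgals3 2828 and 4.69. Spp1 was the member with the highest level in liver in every group, with a median TPM of 56.8 in WT NCD liver against 0.428 in WT NCD fat, and of 48.7 in WT HFD liver against 177 in WT HFD fat. Cd9 was second in liver, at 28.0 TPM in WT NCD liver against 60.6 in fat. In FPKM its medians were 14.8 and 15.4, so this gap depends on the scaling. Tm4sf19 had at most 3 reads in any liver library.

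The diet difference in fat minus that in liver was positive for all 10 members in WT and in KO mice. All 10 were called in each by limma, where 21.8% and 21.2% of genes were called higher, edgeR on the recovered reads called 7 of 10 in KO mice and not Trem2, Itgax and Tm4sf19, and nothing is read from these counts since the fat contrast was known. The difference of differences in WT mice was 4.96 ± 0.32 for Trem2, 6.75 ± 0.55 for Gpnmb and 3.27 ± 0.46 for Cd9. With the mouse as a block, which pairs the fat and liver of an animal, 10 of 10 were called in WT and in KO mice. Over the alternative settings 4593 to 7082 genes were called in WT and 4986 to 6103 in KO mice. The members' counts are again a description.

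**Figure D4:**
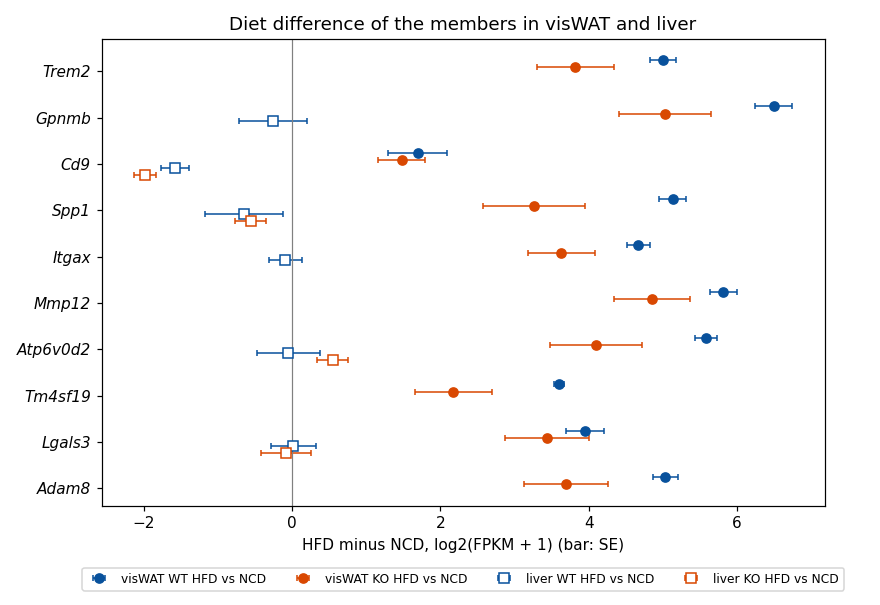
HFD minus NCD difference on log2(FPKM + 1) with its SE for each member, in visWAT (filled circles) and liver (open squares), WT in blue and KO in orange; liver symbols are absent where the member was below the expression floor. All visWAT differences lie between 1.48 and 6.49, and Cd9 in liver lies at -1.57 in WT and -1.98 in KO.

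Cd9 fell in HFD liver while it was called higher in HFD fat. In WT liver it was at 15.2, 14.4, 26.7 and 13.7 FPKM on NCD and at 4.73, 6.31, 3.97, 4.57 and 5.64 FPKM on HFD. Every HFD library lay below every NCD library, where 11.6% of genes were lower without overlap, and the log2 difference was -1.57 ± 0.19 (adjusted p = 0.00052 in limma). In KO liver it was at 18.2, 17.3, 16.2 and 20.0 FPKM on NCD and at 3.08, 5.79, 3.19, 3.51 and 3.77 on HFD, again without overlap, where 9.89% of genes were lower. That difference was -1.98 ± 0.14 (adjusted p = 4e-05 in limma).

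Cd9 was the single member called in either liver diet contrast, of 6 tested in WT, where 25.3% of 13330 genes were called in either direction, and of 4 tested in KO, where 22.2% of 13149 were. In WT liver the log2 difference of Spp1 was -0.64 ± 0.53 (adjusted p = 0.41 in limma) and that of Lgals3 was 0.02 ± 0.31 (adjusted p = 0.97 in limma). In KO liver the differences were 0.55 ± 0.21 for Atp6v0d2 (adjusted p = 0.09 in limma) and -0.56 ± 0.20 for Spp1 (adjusted p = 0.077 in limma). DESeq2 on the recovered reads called both, and edgeR called Spp1.

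The call of Cd9 in WT liver held in every setting run, also without mouse 182. For other members the WT result depends on the library labelled WT NCD mouse 182. That liver carried the members at levels far above the other 3 WT NCD livers. Gpnmb was at 4.37 FPKM there and at 0.0186, 0.0246 and 0.0606 in the others. Trem2 was at 1.61 FPKM against 0.110 to 0.130, Atp6v0d2 at 5.17 against 0.312 to 0.393, and Spp1 at 147 against 18 to 33.1. Lgals3 was at 6.13 FPKM against 1.15 to 1.67 and Mmp12 at 0.627 against 0.0148 to 0.0546. For all 10 members this NCD liver also exceeded every WT HFD liver, for Tm4sf19 with 1 read against 0.

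Other markers moved with the members in that liver. Cd68 was at 10.4 FPKM against 2.93 to 3.50 in the other WT NCD livers, Lyz2 at 89.4 against 21.5 to 27.9, and the summed macrophage markers at 142 against 43.5 to 59.4. The Kupffer cell markers did not: their sum was 38.9 FPKM against 44.7 to 59.2, and Clec4f, the C-type lectin of Kupffer cells, was at 12.9 against 18.9 to 24.4. The bile duct markers summed to 19.4 FPKM against 4.47 to 5.64, with Epcam at 7.83 against 0.876 to 1.29. In the fat of the same mouse Trem2 was at 0.784 FPKM, within the range of the other WT NCD mice, and Gpnmb at 1.21, at its lower end. The part of these cells, or of a mix-up of samples, was not tested.

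Without mouse 182, 3 of 4 members tested were called in WT liver, where 28.5% of genes were called in either direction. That library was the highest WT NCD liver for the members tested. Leaving it out raises HFD minus NCD by itself, so the adjusted p-values in this setting are a description. Atp6v0d2 was then higher on HFD by 0.50 ± 0.09 (adjusted p = 0.00328 in limma) and Lgals3 by 0.40 ± 0.12 (adjusted p = 0.0301 in limma), and Cd9 differed by -1.36 ± 0.12. Across all alternatives the adjusted p of Atp6v0d2 in WT liver ran from 0.00328 to 0.997 in limma, edgeR and DESeq2, and that of Lgals3 from 0.0301 to 0.997. For 5 of 10 members, Trem2, Gpnmb, Mmp12, Atp6v0d2 and Lgals3, every WT HFD liver was then above every WT NCD liver. Of the genes above the floor, 16.5% were. Atp6v0d2 and Lgals3 passed that floor, while Trem2, Gpnmb and Mmp12 stayed below it, so the share does not cover them. With the floor also removed, a setting chosen after seeing the data, 4 of 10 were called, where 11.7% of genes were called. They were Cd9, Atp6v0d2, Gpnmb by 0.34 ± 0.06 (adjusted p = 0.0114 in limma) and Trem2 by 0.35 ± 0.09 (adjusted p = 0.0465 in limma). The levels were small: Trem2 had 27 to 55 reads per WT HFD liver and 9 to 12 in the other 3 WT NCD livers.

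In KO liver Trem2 was at 0.0841 to 0.139 FPKM on NCD and at 0.151 to 1.0 on HFD, and Itgax at 0.111 to 0.131 on NCD and at 0.229 to 2.66 on HFD. Neither overlapped between the diets. Of the genes above the floor, 11.6% were higher without overlap, but Trem2 and Itgax stayed below it, so that share does not cover them. The top of each HFD range belongs to mouse 152, at 1.0 FPKM of Trem2, 2.66 of Itgax, 0.808 of Gpnmb and 6.06 of Lgals3. In that liver the summed macrophage markers were at 146 FPKM against 42.4 to 64.1 in the other 4 KO HFD livers. Its summed Kupffer markers were at 145 FPKM against 38.2 to 66.0 there, unlike the liver of mouse 182. The part of Kupffer cells in these values was not tested.

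**Figure D5:**
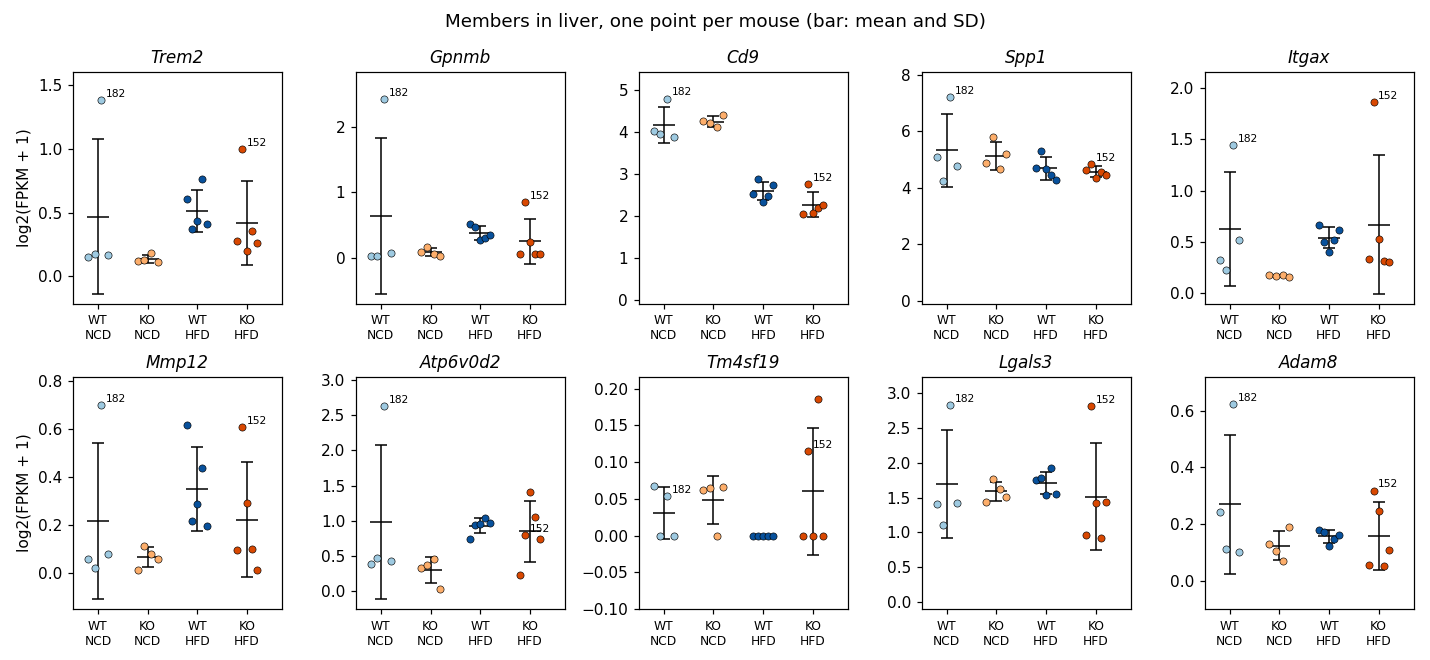
Levels of the 10 members in liver as log2(FPKM + 1), 1 point per mouse, with the mean and SD of each group (4 mice per NCD group, 5 per HFD group) and a separate vertical scale for each member. The library labelled WT NCD mouse 182 and KO HFD mouse 152 lie above their groups for most members, and Cd9 is lower on HFD in both genotypes.

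Genotype made no called difference to the members in liver. On HFD 0 of 5 members tested were called, where 0.197% of 13215 genes were called, with Cd9 at -0.33 ± 0.15 (adjusted p = 0.40 in limma) and Lgals3 at -0.20 ± 0.31 (adjusted p = 0.85 in limma). On NCD 0 of 5 were called, where 0.00758% of 13193 genes were. Itgax, below the floor in this contrast, was at 0.111 to 0.131 FPKM in KO NCD and 0.167 to 1.72 in WT NCD livers without overlap. Of the genes above the floor, 1.4% were lower in KO, a share that does not cover Itgax. Without mouse 182, Cd9 and Lgals3 were higher in every KO NCD than in every WT NCD liver, where 2.75% of genes were, by 0.29 ± 0.08 (adjusted p = 0.661 in limma) and 0.28 ± 0.12 (adjusted p = 0.872 in limma). Mouse 182 had the highest WT NCD liver value of both, so leaving it out raises KO minus WT by itself. For the difference of diet effects 0 of 5 were called, where 0.0151% of 13248 genes were, and that of Cd9 was -0.41 with all mice and -0.62 without mouse 182. At unadjusted p under 0.05 the counts over all genes were 1664, 574 and 811 in these 3 contrasts. DESeq2 and edgeR called none of the members in them either. The KO mice with the lowest members in HFD fat, 156 and 157, did not stand apart in liver for Trem2. It was at 0.279 and 0.198 FPKM there, against 0.151 to 1.0 in the other 3 KO HFD livers. Relative to the 8 macrophage markers, the log2 ratio of Trem2 was -3.18 and -4.03 in these livers, inside the -4.52 to -2.91 of the other 3. The ratio of Gpnmb was -5.84 and -6.11, against -5.23 to -3.22 in the other 3. Gpnmb had as few as 5 reads in KO HFD liver, so no difference between members is read from this. For Spp1 the ratios, 3.16 and 2.70, lay inside the 1.90 to 3.75 of the other 3.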

How the data were processed

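RNA-seq was analysed from visWAT and liver of the same 18 mice (36 libraries; groups and replicate mice as titled by the submitters). Per the study's methods, poly(A) libraries were sequenced as 150 bp pairs, trimmed with fastp, aligned to mm39 with HISAT2 and counted with featureCounts (v1.5.0-p3, from the submitters' processing notes). The annotation release and the strand setting are not given in the sources used here. The authors deposited gene-level FPKM, and the deposited count columns of the comparison tables were used to find each library's size. In these deposited tables the authors' own fold changes and p-values, and 72 other per-sample columns, were not used.

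FPKM returned to whole reads for 100% of values (tolerance 0.01 reads). The size used for FPKM, divided by the reads assigned to genes, was 1.01 to 1.40 for visWAT libraries and 0.737 to 0.812 for liver libraries, so levels across tissues were also given as TPM, each library's FPKM scaled to a fixed sum. Tests used limma 3.58.1 (R 4.3.3; lmFit, eBayes with trend) on log2(FPKM + 1) for genes averaging 0.5 FPKM or more, with Benjamini-Hochberg adjustment over all genes. As alternatives, edgeR 4.0.16 (quasi-likelihood) and DESeq2 1.42.0 were run on the recovered reads. Further settings were pseudocount 0.1, all genes unfiltered, a floor of 1 FPKM, TPM, each mouse left out, mice 182 and 183 left out, and the mouse as a block; leaving out mice 156 and 157, removing the floor and mouse 182 together, or leaving mice out of the macrophage ratio, was chosen after seeing the data. The scripts were tested on simulated data.

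The members and lists were chosen with earlier results of these data known. Named genes were the 10 members, Mlkl, Tyrobp, Adgre1, Csf1r, Cd68, the 4 genes of each list with the highest mean FPKM, and the 5 genes most like the members in HFD visWAT; Clec4f, Lyz2 and Epcam by mouse, Ly6g, Mertk, Dcstamp, Mrc1 and Folr2 follow from the lists or were named after their values were seen. Lists without a result above were epididymis and mesothelial markers (0 of 4 mesothelial genes called in WT visWAT), endothelial (1 of 3 lower) and hepatocyte (1 of 4 lower). Replicates are separate mice. No pair of libraries held identical values. The same mouse number marks the same animal in both tissues, and deviations of the 18 pairs from their group means correlated between -0.05 and 0.22.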

Additional observations from a re-analysis of the deposited data

Results flagged for a closer look

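In 79 groups of 4 or 5 libraries tested for a single value far from the rest (Dixon's test at the 95% level), about 1 in 20 would be marked by chance. The liver library labelled WT NCD mouse 182 stood apart for 7 members, with 1.61 FPKM of Trem2, 4.37 of Gpnmb, 26.7 of Cd9, 147 of Spp1, 0.627 of Mmp12, 5.17 of Atp6v0d2 and 6.13 of Lgals3. The liver of KO HFD mouse 152 stood apart for 5 members, with 1.0 FPKM of Trem2, 0.808 of Gpnmb, 5.79 of Cd9, 2.66 of Itgax and 6.06 of Lgals3. The liver of KO NCD mouse 197 had 0.139 FPKM of Trem2, above its group, and 0 of Tm4sf19, below it, each resting on few reads. In visWAT, WT NCD mouse 183 stood apart with 58.9 FPKM of Cd9 and KO NCD mouse 197 with 1.36 FPKM of Atp6v0d2.

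The diet difference in visWAT minus that in liver was positive in WT mice for all 10 members, on log2(FPKM + 1). It was 4.96 for Trem2, 6.75 for Gpnmb, 3.27 for Cd9, 5.77 for Spp1 and 4.76 for Itgax. It was 5.68 for Mmp12, 5.63 for Atp6v0d2, 3.63 for Tm4sf19, 3.93 for Lgals3 and 5.15 for Adam8. The members were chosen with the visWAT part of this contrast known, so these values are a description.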

How the results depend on the processing

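In visWAT all 10 members were called higher on HFD in both genotypes, and none between genotypes, under every setting run. On the TPM scale the median gene shifted by 0.42 in WT visWAT, with 3805 genes called higher and 227 lower against 3108 and 2239, and the members' median was 6.17. The members called in WT liver were 3 without mice 182 and 183 and 4 without a filter and mouse 182, against 1, and 1 to 3 with 1 mouse left out. In KO liver they were 2 in edgeR and 3 in DESeq2, against 1, and 1 to 2 with 1 mouse left out. In the tissue by diet contrast of KO mice edgeR called 7 of 10. With the mouse as a replicate block, 5365 genes were called in that contrast in WT and 5742 in KO mice, against 5901 and 5909, and 10 of 10 members in each. The block changed no call of a member. The member to macrophage ratio difference was 2.20 against Adgre1 and 3.79 against Csf1r, against 3.30, and, in settings chosen after seeing the data, 3.46 without mouse 183 and 3.50 without mice 182 and 183.

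In visWAT the HFD genotype difference of Lgals3 ran from -0.79 to 0.17 over all settings, the NCD one from -0.74 to 0.13 for Cd9, -0.12 to 0.31 for Itgax and -0.26 to 0.40 for Lgals3, and the diet by genotype one from -0.71 to 0.27 for Cd9 and -0.996 to 0.20 for Lgals3. In the WT liver diet contrast Gpnmb (-0.26) was 0.32 with a pseudocount of 0.1 and 0.34 without a filter and mouse 182, Spp1 (-0.64) was 0.019 without mice 182 and 183, and Itgax (-0.09) was 0.18 without a filter and mouse 182. Atp6v0d2 (-0.05) was 0.27 with a pseudocount of 0.1, 0.039 on the TPM scale and 0.50 in each setting without mouse 182, and ran from -0.25 to 0.50 with 1 mouse left out. Lgals3 (0.02) was -0.23 in edgeR and -0.24 in DESeq2 and ran from -0.18 to 0.40. In the KO diet contrast Lgals3 (-0.08) was 0.18 in edgeR, 0.16 in DESeq2 and 0.15 without mice 156 and 157, and ran from -0.40 to 0.071. Between genotypes on HFD, Lgals3 (-0.20) was 0.023 without mice 156 and 157, Spp1 (-0.12) ran from -0.22 to 0.042 and Atp6v0d2 (-0.08) from -0.22 to 0.072. The cause was not tested.

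Over all genes DESeq2 called 146 between genotypes in HFD visWAT against 3, 8 against 0 in NCD visWAT and 19 against 0 for diet by genotype. In liver it called 259 against 26, 19 against 1 and 58 against 2. Without mice 156 and 157 the KO liver diet contrast called 1826 genes against 2919. Depth limits the liver values, where Tm4sf19 had 0 to 3 reads.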
